A study of Mus musculus with 2 samples.

Results

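Myogenic progenitors without Myog transcripts were taken from 2 single-cell RNA libraries of embryonic mouse skin, 269 cells in the mutant library and 296 in the wildtype library. They were chosen by measured values. A barcode had to lie off the authors' list of dermal cells, hold at least 1000 genes and under 10% mitochondrial UMIs (unique molecular identifiers, the molecules counted), and carry at least 2 of the muscle genes Pax7, Myf5, Myod1, Msc, Des and Chrna1, with Pax7 or Myf5 among them. It also had to carry 0 UMIs of Myog. The 565 cells of both libraries were 2.90% of 19514 barcodes in all. They were set against Myog-positive muscle cells of the same library, which had at least 2 of the 6 muscle genes and 1 or more UMIs of Myog, off the dermal list and under the same gene and mitochondrial limits, and numbered 209 in the mutant library and 226 in the wildtype library. Pax7 or Myf5 was not asked of them, so the levels of these 2 genes are set apart by the choice of cells. A further 14 mutant and 21 wildtype muscle cells had neither Myog nor Pax7 nor Myf5 and were not used.

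The mutant library came from K14Cre embryos bred to the conditional Wntless fl/fl allele, and the wildtype library from control littermates, all at E14.5 from dorsolateral and flank skin. K14Cre is active in keratinocytes, so the allele is targeted in the epidermis and not in muscle, and the labels do not give the controls' alleles at either locus. Embryos were pooled within a genotype, 2 or 3 to a library, and the 2 libraries were made in parallel and shared a sequencing lane. With 1 library per genotype nothing below has a replicate check or a test. All intervals cover 95% and counting error alone.

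The mutant library held 159841679 UMIs over 10449 barcodes and the wildtype library 112593376 UMIs over 9065 barcodes. Wls, the targeted gene, measured 7.66 CPM (UMIs as a share of all UMIs of the population, in counts per 1e6, interval 5.27 to 10.8) in keratinocyte-like cells of the mutant library and 130 CPM (123 to 138) in those of the wildtype library. The libraries had 19 barcode sequences in common, 0 of them in both sets of progenitors. Ddx3y, from the Y chromosome, measured 42.5 CPM in mutant and 46.4 CPM in wildtype progenitors. Xist, from the inactive X chromosome, had 1 UMI in mutant and 54 UMIs in wildtype progenitors. These lay in 1 of 269 mutant and 3 of 296 wildtype progenitors.

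Skeletal muscle of the trunk forms from progenitors that express the paired-box factor Pax7 and then the determination factors Myf5 and Myod1. Myogenin, the product of Myog, is switched on as a myoblast commits to differentiate, leaves the cell cycle, fuses and builds sarcomeres. Notch signalling through the Hes and Hey repressors is known to hold progenitors back from that step. Skin of the flank carries such cells because the cutaneous muscle and the body wall muscles lie beneath the dermis.

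The 3 genes that mark the cells were at these levels. Pax7 measured 128.5 CPM in mutant and 162 CPM in wildtype progenitors and was found in 93.7% and 91.2% of them, against 0.0597% and 0.189% of mutant and wildtype dermal cells. These shares are at each cell's own depth, which was higher in the mutant library. With every cell thinned to 10000 UMIs the order was reversed. Pax7 was then found in 67.7% (interval 61.7 to 73.3) of mutant and 80.4% (75.2 to 84.9) of wildtype progenitors. Myf5 measured 73.0 and 68.0 CPM in the mutant and wildtype progenitors. Msc, which encodes musculin, a repressor of the myogenic factors, measured 370.3 and 291 CPM and was found in 99.3% and 94.6% of progenitors. After thinning Msc was found in 92.8% of mutant and 85.1% of wildtype progenitors, the same order. Pax7, Myf5 and Msc are genes of the rule, so their presence was fixed by the choice of cells and is no check of the label. Median depth was 23920 UMIs in mutant and 17248 in wildtype progenitors, and 15566 and 11154 in dermal cells of the mutant and wildtype libraries.

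In joint clustering of all barcodes, 258 mutant progenitors (95.9%) and 281 wildtype progenitors (94.9%) fell in the same cluster, which was called muscle-like from 7 differentiation markers and held the Myog-positive cells too. Most cells were well inside the rule. Only 6 mutant and 9 wildtype progenitors met it with 2 of the 6 genes, and 1 mutant and 4 wildtype barcodes failed it with 1. On the Myog side, 23 mutant and 24 wildtype muscle cells had a single Myog UMI, while the median Myog-positive cell had 28 UMIs in the mutant and 29 in the wildtype library. The authors' dermal lists held 1 mutant and 4 wildtype barcodes that otherwise met the rule.

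RNA of other cell types was present in the progenitors at these levels. The 10 fibroblast markers summed to 2509 CPM in mutant and 2141 CPM in wildtype progenitors, against 22325 and 16055 CPM in the mutant and wildtype dermis, and none was at 0. The 7 erythroid markers summed to 6407 CPM in mutant progenitors and to 4006 CPM in wildtype progenitors. The same markers summed to 1618 CPM in mutant and 9904 CPM in wildtype Myog-positive cells. The 8 keratinocyte markers summed to 33.9 CPM in mutant progenitors, with Krt1 at 0, and to 73.1 CPM in wildtype progenitors. The 10 macrophage markers summed to 110 and 43.8 CPM in mutant and wildtype progenitors. The part of this RNA in the results was not tested.

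Against Myog-positive cells of their own library, the progenitors were high in Pax7, Msc, Notch receptor and target genes, matrix genes and replication genes, and low in fusion, sarcomere and receptor genes of differentiating muscle. The contrast is the one the rule drew, so its values are a description and support nothing about how the cells were chosen. Over all genes with 20 or more UMIs in both populations together, 23.5% were at least 1.5-fold higher and 8.69% at least 1.5-fold lower in mutant progenitors (11239 genes), and 25.9% and 9.64% were higher and lower in wildtype progenitors (10963 genes). The median log2 ratio over all these genes was 0.18 in the mutant and 0.21 in the wildtype library, so small positive ratios are near the middle of all genes. With median-of-ratios scaling, which moves that median to about 0, 16.6% were higher and 12.1% lower in the mutant library, and 18.0% and 14.1% in the wildtype library.

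**Figure D1:**
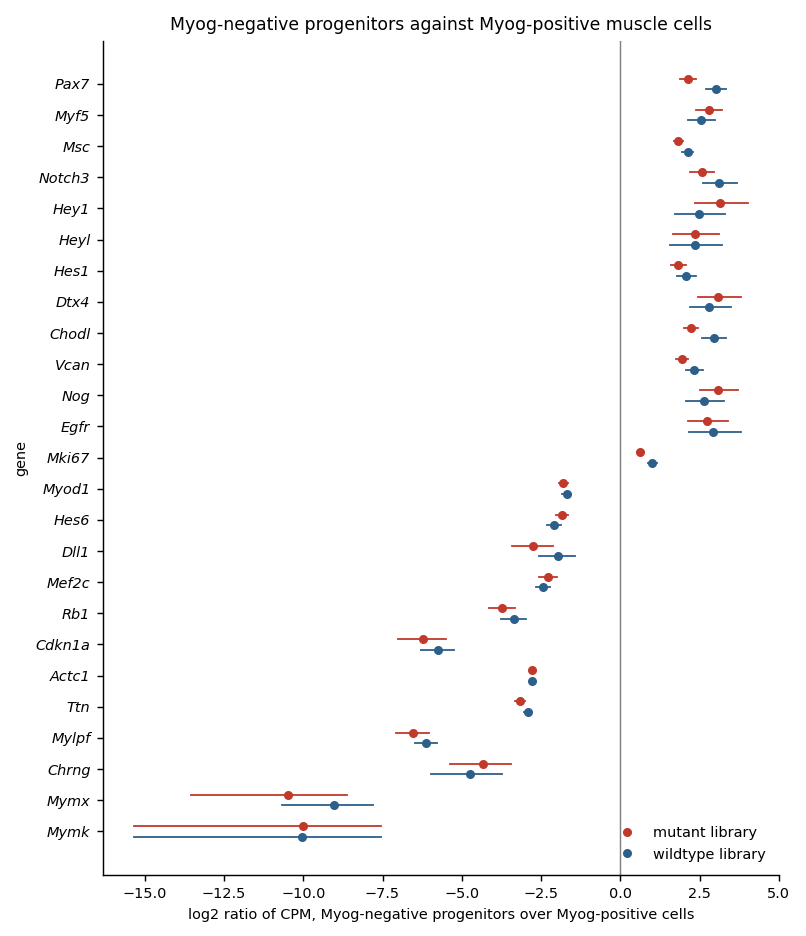
Log2 ratio of CPM in Myog-negative progenitors over Myog-positive cells (horizontal axis) for 25 genes (vertical axis), in the mutant library (red, upper of each pair) and the wildtype library (blue). Points are ratios and lines 95% counting intervals. Pax7 to Mki67 lie right of 0 and Myod1 to Mymk left of 0 in both libraries.

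Among the factors that specify muscle, Pax7 was 4.35-fold higher in mutant progenitors (log2 ratio 2.12, interval 1.88 to 2.37) and 8.02-fold higher in wildtype progenitors (3.00, 2.69 to 3.33). Pax3, the relative of Pax7 that marks the first muscle precursors, was scarce at 3.40 CPM in mutant and 3.97 CPM in wildtype progenitors. Myod1 was present in the progenitors but lower than in Myog-positive cells, 86.5 against 301 CPM in the mutant library and 92.8 against 300.04 CPM in the wildtype library. Mef2c, a partner of the myogenic factors, had log2 ratios of -2.28 in the mutant and -2.44 in the wildtype library. Of 18 progenitor transcription factors, 7 of 14 measured were higher and 3 lower in mutant progenitors, with a median log2 ratio of 0.65, and 9 of 15 measured were higher and 2 lower in wildtype progenitors, with a median of 0.96. Eya1 and Lbx1, factors of trunk and limb muscle precursors, had log2 ratios of 1.83 and 0.84 in the mutant library and 0.96 and 1.06 in the wildtype library.

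Genes of the Notch pathway were on both sides. Notch3, a receptor, measured 71.3 CPM in progenitors against 12.0 CPM in Myog-positive cells of the mutant library, and 62.4 against 7.17 CPM in the wildtype library. The target repressor Hes1 measured 123 against 34.6 CPM in the mutant library and 110 against 26.0 CPM in the wildtype library. The related repressors Hey1 and Heyl had log2 ratios of 3.13 and 2.35 in the mutant library and 2.47 and 2.35 in the wildtype library. In every one of these 4 genes both libraries had the higher level in the progenitors, with intervals clear of 0. The ligand gene Dll1 went the other way, with 3.69 CPM in progenitors against 24.6 CPM in Myog-positive cells of the mutant library and 6.32 against 24.9 CPM in the wildtype library. Hes6, which encodes an antagonist of Hes1, was also lower in progenitors, by log2 ratios of -1.84 in the mutant and -2.09 in the wildtype library. Of 22 pathway genes, 19 were measured in each library, with 8 higher and 5 lower in mutant progenitors (median log2 ratio 0.46) and 9 higher and 5 lower in wildtype progenitors (0.58).

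The cell surface and matrix set progenitors apart as well. Chodl, which encodes the membrane lectin chondrolectin, measured 163 CPM in mutant and 116 CPM in wildtype progenitors, with log2 ratios over Myog-positive cells of 2.22 and 2.95. Met, the receptor for hepatocyte growth factor used by migrating muscle precursors, had log2 ratios of 1.74 in the mutant and 2.36 in the wildtype library, and Cd34, a surface protein also found on adult satellite cells, had 1.62 and 1.79. Vcan, which encodes the proteoglycan versican, measured 187 against 49.0 CPM in the mutant library and 160.2 against 31.8 CPM in the wildtype library. Of 23 laminin, integrin and matrix genes, 16 of 21 measured were higher and 0 lower in mutant progenitors (median 1.19), and 18 of 21 were higher and 0 lower in wildtype progenitors (median 1.13). The fibroblast markers, whose level also bears on matrix genes, summed to 1272 CPM in mutant and 1769 CPM in wildtype Myog-positive cells, below the progenitors of each library. The surface protein genes Cdh15 and Cd82 were lower in progenitors, with log2 ratios of -0.84 and -2.05 in the mutant and -0.89 and -2.12 in the wildtype library. Of 20 satellite and progenitor surface genes, 12 of 19 measured were higher and 2 lower in mutant progenitors (median 1.04). In wildtype progenitors 10 of 19 were higher and 2 lower (median 0.61). Cd82 was the lowest of this list in both libraries.

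Ranked over all genes by the library with the smaller ratio, the 10 highest in progenitors were Sh2d3c, Dtx4, Egfr, Nog, Dbx1, Fap, Gm266, Notch3, Tagln and Lypd1. Nog, which encodes the BMP antagonist noggin, measured 41.4 CPM in progenitors against 4.92 CPM in Myog-positive cells of the mutant library and 37.9 against 6.05 CPM in the wildtype library. Egfr, the epidermal growth factor receptor, measured 31.6 against 4.74 CPM in the mutant library and 25.6 against 3.36 CPM in the wildtype library. Dbx1, a homeobox gene, measured 35.0 against 5.65 CPM and 29.6 against 3.36 CPM in the mutant and wildtype libraries and was at 0.0123 and 0.0795 CPM in the mutant and wildtype dermis. Set against cells with 2 or more Myog UMIs, the log2 ratio of Nog was 4.85 rather than 3.07 in the mutant and 3.35 rather than 2.65 in the wildtype library. Fap, in contrast, measured 35.0 and 29.8 CPM in mutant and wildtype progenitors and was also present in the dermis, at 31.9 and 18.6 CPM in the mutant and wildtype libraries. Hox genes were broadly higher, 16 of 22 measured in mutant progenitors with 0 lower, and 14 of 22 in wildtype progenitors with 1 lower.

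The genes lowest in progenitors belong to differentiating muscle. Mymk and Mymx encode myomaker and myomixer, the membrane proteins that fuse myoblasts. Mymk had 1 UMI in mutant and 1 UMI in wildtype progenitors, against 807 and 847 UMIs in mutant and wildtype Myog-positive cells. Mymx measured 0.284 against 408 CPM in the mutant library and 0.902 against 473 CPM in the wildtype library. Cdkn1a, the cyclin-dependent kinase inhibitor p21 that marks cell cycle exit in muscle, measured 2.27 CPM in progenitors against 168 CPM in Myog-positive cells of the mutant library and 5.77 against 308 CPM in the wildtype library. Rb1, the retinoblastoma gene, had log2 ratios of -3.72 in the mutant and -3.36 in the wildtype library. The embryonic receptor subunit gene Chrng and Dok7, which organises the neuromuscular junction, had -4.33 and -4.44 in the mutant and -4.74 and -4.47 in the wildtype library.

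Sarcomere genes were not uniformly absent. Of 34, 26 of 30 measured were lower and 1 higher in mutant progenitors (median log2 ratio -3.20, with 7 genes at a bound), and 26 of 30 were lower and 0 higher in wildtype progenitors (-3.83, with 5 at a bound, and -4.80 once cells among the 8% with the highest doublet scores were left out). Actc1, the cardiac alpha-actin used by embryonic muscle, still measured 491 CPM in progenitors against 3411 CPM in Myog-positive cells of the mutant library and 565 against 3880 CPM in the wildtype library. Titin (Ttn) measured 64.7 against 579 CPM and 128.1 against 974 CPM in the mutant and wildtype libraries. Tnnt2, the cardiac troponin T of early muscle, was far lower in progenitors, at 4.68 against 874 CPM and 8.84 against 1179 CPM in the mutant and wildtype libraries. Mylpf, the fast light chain, measured 4.68 against 434 CPM in the mutant library and 13.5 against 940.02 CPM in the wildtype library. Tnni1 had 0 UMIs in mutant progenitors and was at least 376-fold lower there than in Myog-positive cells, taking 3 UMIs over the population as the floor. These genes passed the minimum through the Myog-positive cells, so that they were lower follows in part from being measured.

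Myogenic factors bind E-box motifs, of which CAGCTG is one form and reads the same on both strands. The promoters of Chrng and Mylpf, 2 of the genes lowest in progenitors, and of Myog itself, the gene that divides the cells, are shown from 250 bases before to 50 bases after the RefSeq start, with CAGCTG in capitals. All lie on the plus strand of GRCm38.p6, Chrng at chr1:87205561-87205860, Mylpf at chr7:127211358-127211657 and Myog at chr1:134289754-134290053.
Chrng: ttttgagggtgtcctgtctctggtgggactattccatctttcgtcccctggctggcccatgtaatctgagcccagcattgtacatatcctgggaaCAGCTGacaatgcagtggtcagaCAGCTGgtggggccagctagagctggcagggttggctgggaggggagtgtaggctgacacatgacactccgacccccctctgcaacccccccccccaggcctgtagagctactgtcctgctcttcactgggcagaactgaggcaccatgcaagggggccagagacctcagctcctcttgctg
Mylpf: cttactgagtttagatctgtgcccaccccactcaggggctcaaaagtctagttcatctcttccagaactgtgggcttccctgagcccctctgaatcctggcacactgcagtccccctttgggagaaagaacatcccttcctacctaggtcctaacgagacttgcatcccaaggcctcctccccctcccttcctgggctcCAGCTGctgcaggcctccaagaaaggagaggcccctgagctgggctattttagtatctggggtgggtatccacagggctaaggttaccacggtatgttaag
Myog: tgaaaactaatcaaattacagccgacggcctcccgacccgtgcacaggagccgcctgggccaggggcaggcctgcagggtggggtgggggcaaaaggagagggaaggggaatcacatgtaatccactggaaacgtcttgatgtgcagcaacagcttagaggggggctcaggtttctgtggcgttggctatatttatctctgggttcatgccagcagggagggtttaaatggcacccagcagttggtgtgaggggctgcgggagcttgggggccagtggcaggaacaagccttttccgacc

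Chrng held CAGCTG starting 155 and 132 bases before the start, and Mylpf held it 51 bases before. The window of Myog had no match to these 6 letters, which says nothing about other E-box forms. Of 32 sarcomere, acetylcholine receptor and synapse genes at least 1.5-fold lower in the progenitors of both libraries, 27 had a promoter entry and 12 (44.4%) held the motif. Of all 27025 genes with an entry 18.3% held it, of the measured genes 17.4%, of those lower in the progenitors of both libraries 30.5%, and of those higher in both 19.2%. A match is a description of the sequence and not of binding.

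Progenitors and Myog-positive cells were also grouped by their Myog UMIs after every cell was thinned to 10000 UMIs. The grouping was made after the values were seen, and its first group, with 0 UMIs, is almost wholly the progenitors (263 of 282 mutant and 275 of 288 wildtype cells). Hes1 measured 122, 90.7, 6.06, 8.86 and 6.06 CPM at 0, 1 to 3, 4 to 9, 10 to 29 and 30 or more Myog UMIs in the mutant library, and 114, 102, 16.7, 2.30 and 4.17 CPM in the wildtype library. It stayed near its progenitor level in cells with a few Myog UMIs and was low beyond. Pax7 was lower at 1 to 3 Myog UMIs, at 46.5 against 120.2 CPM without Myog in the mutant library and 64.4 against 165 CPM in the wildtype library. The progenitors had to carry Pax7 or Myf5 and the Myog-positive cells did not, so this difference follows in part from the choice of cells. Myod1 measured 91.1, 207, 358, 344 and 288 CPM in the mutant library and 104, 238, 350.0, 366 and 352 CPM in the wildtype library. Its level at 4 to 9 Myog UMIs was near those at higher Myog counts. Cdkn1a rose from group to group, at 2.48, 6.98, 42.4, 223 and 482 CPM in the mutant and 3.82, 22.2, 179, 385 and 652 CPM in the wildtype library. The groups are levels of Myog and not an order in time. In the wildtype library Mylpf measured 1633 CPM at 4 to 9 and 726 CPM at 10 to 29 Myog UMIs, against 21.2 and 551 CPM in the mutant library. Mymx measured 11.6 mutant and 17.8 wildtype CPM at 1 to 3 Myog UMIs and 1149 and 1167 CPM at 30 or more, so most of its difference lay among the Myog-positive cells. The groups from 1 UMI up held 43, 33, 79 and 33 mutant and 45, 24, 87 and 48 wildtype cells.

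**Figure D2:**
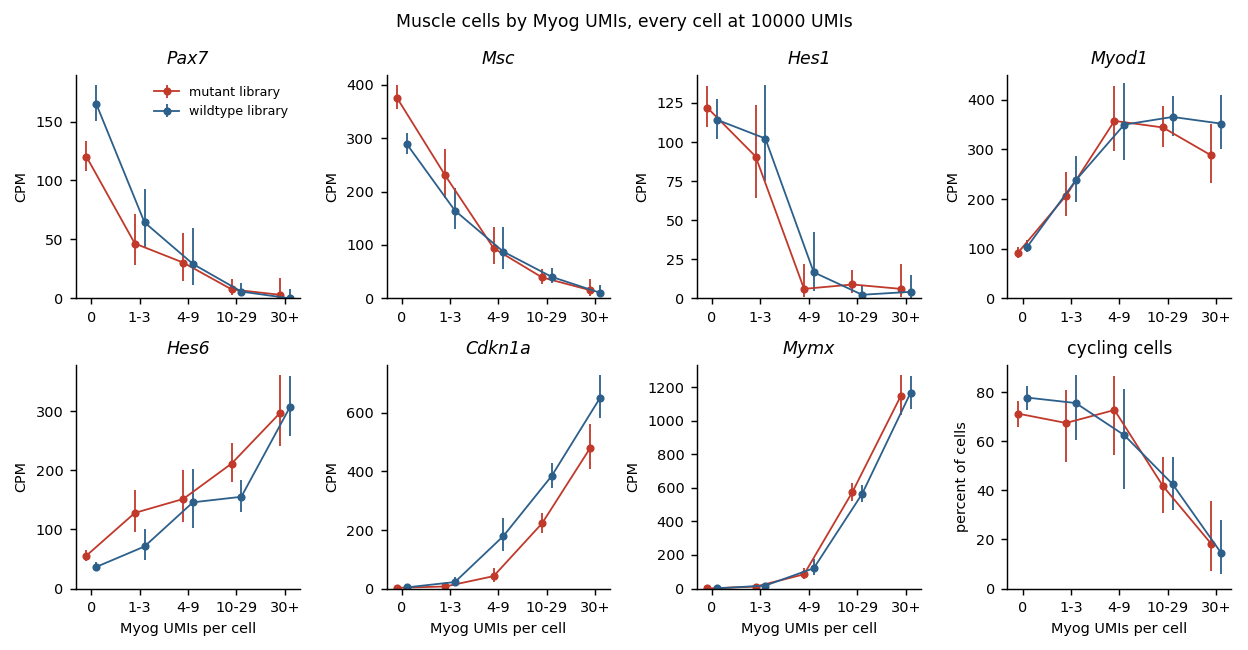
Levels in CPM of 7 genes and the percent of cycling cells (vertical axes) in muscle cells grouped by Myog UMIs per cell (horizontal axes), every cell thinned to 10000 UMIs, mutant library in red and wildtype library in blue. Points are summed levels or shares and bars 95% counting intervals, and from 4 to 9 Myog UMIs on Hes1 is at most 16.7 CPM, while the cycling share there is 72.7% in the mutant and 62.5% in the wildtype library.

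Cycling was common among progenitors. A cell was called cycling with 3 or more of Mki67, Top2a, Cdk1, Ccnb1, Ccna2, Ube2c, Birc5 and Aurkb after thinning to 10000 UMIs. By this count 188 of 263 mutant progenitors (71.5%, interval 65.6 to 76.9) and 213 of 275 wildtype progenitors (77.5%, 72.1 to 82.3) were cycling, after 6 mutant and 21 wildtype cells under that depth were left out. The share was 50.7% (43.7 to 57.7) in mutant and 47.9% (41.1 to 54.8) in wildtype Myog-positive cells, below the progenitors in both libraries. Without thinning it was 82.9% in mutant and 82.1% in wildtype progenitors, and 61.2% and 54.0% in mutant and wildtype Myog-positive cells. After thinning, the dermis of the same libraries differed more, at 27.5% of mutant and 52.8% of wildtype dermal cells. There 517 mutant and 1916 wildtype dermal cells under 10000 UMIs were left out, and the part of this loss was not tested. Before thinning, Mki67 was found in 28.1% of mutant and 38.3% of wildtype dermal cells. Among the dermal cells kept it was found in 26.7% and 46.5% after thinning. Free RNA of these 8 genes can enter the call, and its part was not tested.

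Proliferation markers had close levels in mutant and wildtype progenitors. Mki67, the standard marker of cycling cells, measured 271 CPM in mutant and 243 CPM in wildtype progenitors, and Top2a, the mitotic topoisomerase, 408 and 399 CPM. Against Myog-positive cells, Mki67 was higher in progenitors of both libraries, with log2 ratios of 0.64 and 1.01 in mutant and wildtype. Of 42 S phase genes 26 were higher and 0 lower in mutant progenitors (median 0.64) and 36 higher and 1 lower in wildtype progenitors (0.90). Of 54 G2M genes 20 were higher and 1 lower in mutant progenitors (0.51) and 40 higher and 1 lower in wildtype progenitors (0.73). By Myog level, the cycling share was 71.3, 67.4, 72.7, 41.8 and 18.2% from 0 to 30 or more Myog UMIs in the mutant library, and 77.8, 75.6, 62.5, 42.5 and 14.6% in the wildtype library. The intervals at 1 to 3 and 4 to 9 Myog UMIs overlapped those at 0 in both libraries.

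The progenitors were not all alike in their determination factors. At their own depth, 194 mutant and 165 wildtype cells held both Pax7 and Myf5, 58 and 105 held Pax7 alone, and 17 and 26 held Myf5 alone. Thinned to 10000 UMIs, 88 mutant and 100 wildtype cells kept both, so much of this division follows depth. Myod1 had a UMI in 131 of 263 thinned mutant and 150 of 275 thinned wildtype progenitors, a division drawn after the values were seen. Cycling did not follow it, with 70.2% of mutant and 76.7% of wildtype cells with Myod1 and 72.7% and 78.4% of those without. The fibroblast gene Lum was lower with Myod1, at 37.4 against 112 CPM without Myod1 in the mutant library and 39.3 against 82.4 CPM in the wildtype library. Wnt5a, a Wnt ligand gene, measured 9.92 against 31.8 CPM and 11.3 against 32.0 CPM in the mutant and wildtype libraries. The 10 fibroblast markers moved the same way, summing to 1265 against 2602 CPM in mutant and 1333 against 2108 CPM in wildtype cells with and without Myod1, and their part in the Wnt5a difference was not tested.

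Between genotypes the progenitors were as large a share of muscle cells in the mutant as in the wildtype library, and most of their lists sat near the middle of all genes. Progenitors were 269 of 478 muscle cells in the mutant library (56.3%, interval 51.7 to 60.8) and 296 of 522 in the wildtype library (56.7%, 52.3 to 61.0). They were 11.5% (10.2 to 12.8) of the mutant and 12.0% (10.8 to 13.4) of the wildtype barcodes off the dermal list that passed the filters, a share that dissection and dissociation can set. Among 11299 measured genes, 4.56% were at least 1.5-fold higher and 6.43% at least 1.5-fold lower in mutant progenitors, with a median log2 ratio of -0.05. Wls itself measured 47.1 CPM in mutant and 52.0 CPM in wildtype progenitors (log2 ratio -0.14, interval -0.37 to 0.09), in cells outside the keratinocytes that K14Cre targets.

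**Figure D3:**
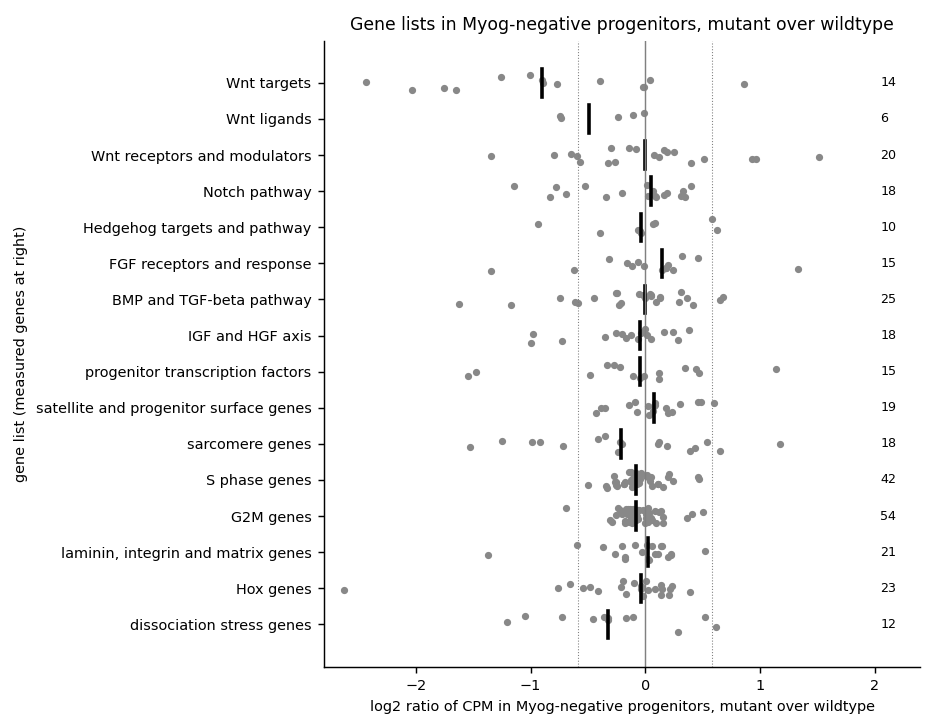
Log2 ratio of CPM in Myog-negative progenitors, mutant over wildtype (horizontal axis), of the measured genes of 16 lists (vertical axis). Grey points are genes, black bars medians, dotted lines 1.5-fold and the numbers at right the measured genes, and the median of the Wnt targets is -0.90 while those of the S phase and G2M genes are -0.08. The lowest gene of the Wnt ligands, at -3.15, and that of the Hedgehog list, at -3.81, lie left of the axis range and are not seen.

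Many of the Wnt targets were lower in mutant progenitors. These are genes that beta-catenin and the Lef and Tcf factors are known to switch on. Of 18, 14 were measured, and 9 of them (64.3%, beside 6.43% of all genes) were at least 1.5-fold lower in mutant progenitors, while 1, the receptor gene Lgr5, was higher (log2 ratio 0.87). The median log2 ratio was -0.90. Nkd1, a feedback inhibitor of the pathway, measured 9.36 CPM in mutant and 38.3 CPM in wildtype progenitors (log2 ratio -2.03, interval -2.45 to -1.63) and was found in 18.2% and 40.5% of them. Lef1, a DNA-binding partner of beta-catenin, measured 11.3 CPM in mutant and 35.5 CPM in wildtype progenitors (-1.65, -2.04 to -1.27). Axin2, the most used reporter of the pathway, measured 8.94 CPM in mutant and 16.6 CPM in wildtype progenitors (-0.89, -1.38 to -0.42). Ccnd1, which encodes cyclin D1, measured 35.6 CPM in mutant and 71.6 CPM in wildtype progenitors (-1.01, -1.24 to -0.78). The other 5 were Sp5, Wif1, Tcf7, Nkd2 and Apcdd1, at log2 ratios of -2.43, -1.75, -1.25, -0.90 and -0.77. The interval of Nkd2, -1.88 to 0.04, reached 0. With every cell thinned to 10000 UMIs, Sp5 was at -3.40, Wif1 at -0.94 and Nkd2 at -0.23, the last inside 1.5-fold, and among cells with at most 1% collagen UMIs Apcdd1 was at -1.36.

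The targets were also compared in Myog-positive cells and the dermis. In Myog-positive cells 11 of 14 measured targets were lower (median -1.17, beside 8.38% of all genes lower), and in the dermis 11 of 16 (median -0.70, beside 5.64%). Nkd2, lower in progenitors, was within 1.5-fold in the dermis at -0.34. Nkd1, Lef1, Axin2 and Ccnd1 had log2 ratios of -1.28, -1.06, -0.68 and -0.85 in Myog-positive cells, and Axin2 was the one whose interval reached 0. In the dermis these 4 had -1.51, -2.97, -1.01 and -0.63. Whether the progenitors differed from these populations in size of effect was not tested.

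Dermal RNA was present in the progenitors, so their target levels were set against those of the dermis. The collagen genes Col1a1, Col1a2 and Col3a1 stood in mutant progenitors at 10.5, 12.3 and 11.8% of their level in the mutant dermis, and in wildtype progenitors at 13.3, 16.5 and 14.2% of theirs. Lef1 stood at 164% of the dermal level in the mutant and 65.5% in the wildtype library, Axin2 at 47.1 and 43.3%, Nkd1 at 27.2 and 39.1%, and Ccnd1 at 21.4 and 27.8%. Wif1 stood at 13.3% in the mutant and 16.6% in the wildtype library, shares near those of the collagen genes in each library. Other genes of the dermis stood lower, Dcn at 8.16 and 8.60%, Lum at 7.60 and 7.02% and Twist1 at 8.55 and 6.83% in mutant and wildtype. The part of dermal RNA in the level of Wif1 was not tested. Without Wif1, a choice made after its values were seen, 8 of 13 targets were lower.

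**Figure D4:**
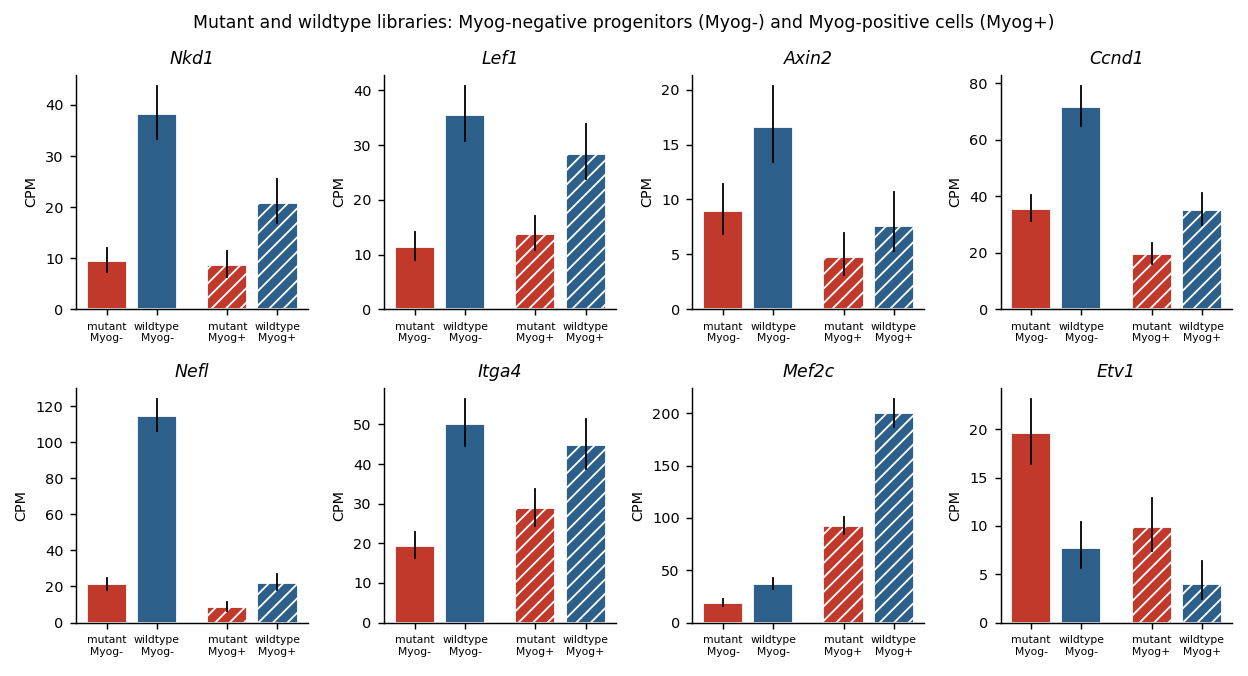
Levels in CPM (vertical axes) of 8 genes in Myog-negative progenitors (plain bars) and Myog-positive cells (hatched bars) of the mutant (red) and wildtype (blue) libraries. Lines are 95% counting intervals. Nkd1, Lef1, Axin2, Ccnd1, Nefl, Itga4 and Mef2c are lower in mutant than in wildtype progenitors and Etv1 is higher, at 19.6 CPM (mutant) and 7.76 CPM (wildtype).

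Other pathways had medians closer to 0, with counts to be read beside the 6.43% of all genes that were lower and the 4.56% that were higher. Of 19 Wnt ligand genes 6 were measured, with 3 lower and 0 higher in mutant progenitors (median -0.49, lowest gene -3.15). The Notch genes had 0 of 18 measured higher and 4 lower (median 0.05), and Hes1, Hey1 and Heyl had log2 ratios of 0.17, 0.09 and 0.03. The Hedgehog list had 1 of 10 higher and 2 lower (median -0.04, lowest gene -3.81). The FGF list had 1 of 15 higher and 2 lower (0.14), and the BMP and TGF-beta list 2 of 25 higher and 5 lower (median 0.00). Fst, which encodes the activin antagonist follistatin, was the lowest of the last list with 50 or more UMIs, at 6.81 CPM in mutant and 20.9 CPM in wildtype progenitors (log2 ratio -1.62, interval -2.14 to -1.12). Once cells among the 8% with the highest doublet scores were left out it was -2.83. In Myog-positive cells Fst measured 17.7 CPM for the mutant and 40.3 CPM for the wildtype library. Igf1, the growth factor, measured 14.3 CPM in mutant and 28.5 CPM in wildtype progenitors, with dermal levels of 67.8 and 88.6 CPM, a log2 ratio of -0.99 that was -1.66 without those cells.

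Summed levels of the progenitor program itself were close in both genotypes. Pax7 had a log2 ratio of -0.33 (interval -0.47 to -0.20), Myf5 of 0.10, Myod1 of -0.10 and Msc of 0.35 (0.26 to 0.44) in mutant over wildtype progenitors, all within 1.5-fold. The share of cells with Pax7 differed at equal depth. Among cells thinned to 10000 UMIs it was 67.7% in mutant and 80.4% in wildtype progenitors, with intervals that did not overlap. The cells were chosen before thinning, at unequal depth, and the part of this in the Pax7 shares was not tested. Of 15 measured progenitor transcription factors 1 was higher and 2 lower (median -0.04), of 19 surface genes 1 was higher and 0 lower (0.08), and of 21 laminin, integrin and matrix genes 0 were higher and 2 lower (0.03). Itga4, the integrin alpha4 chain, was the lowest of the matrix list, at 19.4 CPM in mutant and 50.2 CPM in wildtype progenitors (-1.37, -1.67 to -1.07). In Myog-positive cells Itga4 measured 28.8 and 44.8 CPM, and in the dermis 30.8 and 11.8 CPM, in the mutant and wildtype libraries.

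Low levels of differentiation genes in progenitors were lower still in the mutant for some genes. Mef2c had 134 UMIs in mutant and 204 UMIs in wildtype progenitors, whose totals differ (log2 ratio of CPM -0.95, interval -1.28 to -0.63). The slow troponin gene Tnnt1 measured 122 CPM in mutant and 290 CPM in wildtype progenitors (-1.25, -1.37 to -1.13), and Ttn had -0.99 and Mylpf -1.53. Actc1 had -0.20. Of 34 sarcomere genes 18 were measured in the progenitors, with 2 higher and 5 lower (median -0.21, beside 4.56% of all genes higher and 6.43% lower), whereas in Myog-positive cells 31 were measured, with 0 higher and 18 lower (median -0.65, beside 8.38% of all genes lower). Over 13 alternatives the sarcomere median in progenitors ranged from -0.32 to -0.04. Having 0 Myog UMIs depends on depth, and the median depth was 23920 UMIs in mutant and 17248 in wildtype progenitors. The part of depth in these differences, and whether the lists differ between the 2 populations, was not tested.

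The 10 genes lowest in mutant progenitors were Gm10320, Tpm3-rs7, AA465934, Nefl, Rassf9, Nkd1, Nefm, Cpe, Lef1 and Itga4. The first 3 had log2 ratios of -8.49, -4.20 and -4.16 in progenitors, -6.96, -4.17 and -4.13 in Myog-positive cells and -7.04, -4.43 and -4.93 in the dermis, so they were low in every population of the mutant library that was compared. Nefl and Nefm encode light and medium neurofilament chains, known from neurons. Nefl measured 21.3 CPM in mutant and 115 CPM in wildtype progenitors (-2.43, -2.70 to -2.17) and was found in 30.1% and 69.3% of them, against 5.17% and 3.64% of dermal cells. Nefm measured 4.40 CPM in mutant and 16.8 CPM in wildtype progenitors (-1.93, -2.57 to -1.33). In Myog-positive cells Nefl had a log2 ratio of -1.39, mutant over wildtype. All 7 neuron markers, Nefl among them, summed to 102 CPM in mutant and 228 CPM in wildtype progenitors, with Elavl3 at 0 in the wildtype. Isl1 made up most of the rest, at 71.8 CPM in mutant and 105 CPM in wildtype progenitors (-0.55), and the other 5 summed to 8.65 and 7.94 CPM. The 7 Schwann and neural crest markers summed to 36.2 CPM in mutant and 59.5 CPM in wildtype progenitors, none at 0, with 4 of 7 lower and 0 higher (median -0.93). Of the 8 keratinocyte markers 5 were measured, with 4 lower and 0 higher (median -5.21). All 8 summed to 33.9 CPM in mutant and 73.1 CPM in wildtype progenitors. In the joint clustering 3 wildtype progenitors, and no mutant ones, fell in the keratinocyte-like cluster. The part of such RNA in these differences was not tested. Rassf9 measured 4.96 CPM in mutant and 25.3 CPM in wildtype progenitors, and 0.148 and 0.191 CPM in the mutant and wildtype dermis. Cpe, which encodes carboxypeptidase E, measured 5.11 CPM in mutant and 17.7 CPM in wildtype progenitors (-1.79, and -2.68 with every cell thinned to 10000 UMIs).

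Among the 10 highest were Hist1h3c, Hist1h4d, Etv1, Arfgef3, Morn2, Gm42418, Eif3j2, L3hypdh and Hist1h4h. The 3 histone genes Hist1h3c, Hist1h4d and Hist1h4h had log2 ratios of 1.48, 1.42 and 1.14 in progenitors and 1.51, 1.83 and 1.15 in Myog-positive cells. Their near-identical copies in the genome make the counts of single histone genes uncertain. Gm42418, which overlaps ribosomal RNA sequence, had 1.22, 1.26 and 1.30 in progenitors, Myog-positive cells and dermis. Etv1, an ETS factor that responds to FGF signalling, measured 19.6 CPM in mutant and 7.76 CPM in wildtype progenitors (1.33, 0.83 to 1.86) and had log2 ratios of 1.29 in Myog-positive cells and -0.38 in the dermis.

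Immediate early genes, which dissociation is known to raise, were present in progenitors of both libraries, and some differed between them. Egr1 measured 120.1 CPM in mutant and 249 CPM in wildtype progenitors (log2 ratio -1.05), and 31.4 and 72.4 CPM in mutant and wildtype Myog-positive cells. Fos measured 148 CPM in mutant and 245 CPM in wildtype progenitors (-0.73). Fosb went the other way, at 22.3 CPM in mutant and 15.5 CPM in wildtype progenitors (0.52). Of 14 such genes 12 were measured, with 1 higher and 3 lower (median -0.32), beside 4.56% of all genes higher and 6.43% lower. Against Myog-positive cells, 8 of 11 measured were higher in mutant progenitors (median 1.88) and 7 of 12 in wildtype progenitors (median 0.72), and their part in the other differences was not tested.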

How the data were processed

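The authors deposited 1 matrix per library of whole-number UMI counts per gene and barcode, and the file headers name Cell Ranger 6.1.2 as their source. The submitters' processing notes name mm10 and Seurat. The lists of barcodes, genes and dermal cells are other deposited information, and how the dermal cells were chosen is not given in the sources used here. Counts are of UMIs, not reads. The members and the 40 gene lists were chosen with earlier results of these data known.

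UMIs were summed over the cells of a population in each library and divided by their total (CPM). The totals were 7050833 in mutant and 5541767 in wildtype progenitors. Ratios have exact conditional binomial intervals, levels exact Poisson and shares Clopper-Pearson intervals, all at 95%, which treat UMIs as independent. A population at 0 was set to 3 UMIs. As cells of 1 library are no replicates, none of the values carries a p-value. Genes with 20 or more UMIs over both populations were measured. The named genes were the 10 highest and 10 lowest of each comparison with 100 or more UMIs, leaving out mitochondrial, ribosomal, haemoglobin and sex-linked genes and those under 5% of their level in the cluster with most of them, up to 4 per list with 50 or more UMIs, the rule genes, the cycling genes, Pax3 and Wls. Hes1, Hes6, Actc1, Cd34, Cdh15, Lbx1, Sp5, Tcf7, Nkd2, Apcdd1, Krt1 and Elavl3 were named after their values were seen. A few named genes are left out here. On simulated sums of mutant and wildtype progenitors the intervals held the true ratio at least as often as stated. Those sums were drawn as independent counts, the model that the intervals assume. They say nothing about UMIs that cluster in a few cells.

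Clustering used scanpy 1.11.5 (2000 variable genes, 30 components, 15 neighbours, leidenalg 0.10.2 at resolution 0.5) on all barcodes without batch correction. Scrublet called 1 of 10449 mutant barcodes (0.00957%), so it did not work there, and 244 of 9065 wildtype barcodes (2.69%). No doublets were removed in the values given, and the top 8% of scores were left out as an alternative. Other alternatives changed scaling, depth, the minimum UMIs, the rule, the collagen and mitochondrial filters, the cluster and the dermal list. Of 32285 gene identifiers 32158 were in GENCODE mouse release 21 (GRCm38). Promoters are RefSeq's for GRCm38.p6. Scripts ran in Python 3.11.15 (pandas 2.3.3, scipy 1.17.1, numpy 2.4.6).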

Additional observations from a re-analysis of the deposited data

How the results depend on the processing

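In mutant over wildtype progenitors the Wnt target median stayed below 0 under all 13 alternatives, from -1.20 to -0.76. The Notch median, near 0, lay on both sides of it, from -0.05 to 0.10. The Myog-negative share of muscle cells ranged over 6 alternatives from 55.1 to 58.2% in the mutant and from 56.4 to 60.2% in the wildtype library. Of 1144 values of single genes in mutant over wildtype progenitors under alternatives, 28 moved beyond their interval and 0 reversed, and of 2745 against Myog-positive cells 339 moved and 2 reversed. The cycling share moved with its definition, to 82.9% in mutant progenitors without thinning and to 82.5% in mutant and 87.3% in wildtype progenitors with 2 of the 8 genes needed. Without the top 8% of doublet scores the wildtype sarcomere median was -4.80. Restricting the contrast with Myog-positive cells to cells without a UMI of the 8 cycling genes left only 7 mutant and 7 wildtype progenitors. It gave medians for the mutant and wildtype libraries of -0.89 and -0.73 (Notch), 2.58 and 2.45 (S phase), 0.28 and 0.39 (G2M) and -1.72 and -1.86 (cell cycle inhibitors), with -3.10 for wildtype sarcomere genes, and turned Fst to 1.61 in the mutant and 0.040 in the wildtype library. The causes of these moves were not tested. No paired analysis was possible because each genotype has 1 library and the labels give no replicate numbers, and for the same reason no library could be left out. Depth limits the low genes: a gene at 0 UMIs can only be bounded, and ratios resting on 1 to 3 UMIs, such as those of Mymk, have wide intervals.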

Other observations

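Further lists differed between progenitors and Myog-positive cells, with counts to be read beside those of all genes. Of all measured genes 23.5% were at least 1.5-fold higher and 8.69% lower in mutant progenitors (median log2 ratio 0.18). In wildtype progenitors 25.9% were higher and 9.64% lower (0.21). Of 11 Hedgehog pathway genes, 7 of 9 measured were at least 1.5-fold higher and 0 lower in mutant progenitors (median log2 ratio 1.11), and 7 of 10 were higher and 0 lower in wildtype progenitors (0.91). Of 33 BMP and TGF-beta genes, 15 of 26 measured were higher and 4 lower in mutant progenitors (0.71), and 13 of 26 were higher and 3 lower in wildtype progenitors (0.61). The fibroblast markers summed to 2509 CPM in progenitors against 1272 CPM in Myog-positive cells of the mutant library. In the wildtype library they summed to 2141 against 1769 CPM, and their part in the Hedgehog and BMP lists was not tested. Of 18 excitation and calcium handling genes, 10 of 13 measured were lower and 0 higher in mutant progenitors (-2.46), and 12 of 14 were lower and 0 higher in wildtype progenitors (-3.20). Between the 2 sets of progenitors only 7 of the 18 were measured. Many passed the minimum through the Myog-positive cells, so that they were lower follows in part from being measured. Nfia and Nfib, which encode nuclear factor I transcription factors, had log2 ratios of 1.34 and 1.11 in the mutant and 1.67 and 1.41 in the wildtype library. Igfbp5, which encodes a binding protein for insulin-like growth factors, measured 517 CPM in progenitors against 214 CPM in Myog-positive cells of the mutant library, and 395 against 182 CPM in the wildtype library, beside 1242 and 540 CPM in the mutant and wildtype dermis.

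Cdkn1c, the imprinted kinase inhibitor p57, measured 5489 CPM in mutant and 4965 CPM in wildtype progenitors against 9692 and 8948 CPM in mutant and wildtype Myog-positive cells. Hoxd9 measured 1.99 CPM in mutant and 12.3 CPM in wildtype progenitors (log2 ratio -2.63) and had -1.66 in Myog-positive cells and -0.72 in the dermis, while the 23 measured Hox genes had a median of -0.04. Peg10, an imprinted gene, measured 88.1 CPM in mutant and 48.9 CPM in wildtype progenitors (0.85), with 0.45 in Myog-positive cells and 1.08 in the dermis.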
